A study of Danio rerio with 15 samples.

Results

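Transcripts of 10 glycolysis enzyme genes were followed in sorted zebrafish neutrophils: hk1, gpia, gpib, aldoaa, aldoab, aldocb, pgk1, pgam1a, pkma and ldha. The genes were chosen by symbol from the 15937 genes of the deposited expression table. All 10 were found there, and all 10 passed the filter, which asked for 3 libraries or more with a value no lower than 10. The choice covers part of the pathway. It leaves out other enzymes of the same steps and all enzymes of some steps, such as phosphofructokinase, which were examined as separate lists.

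RNA of neutrophils was sequenced in 15 libraries, 3 for each of 5 groups. The cells of every group were sorted from embryos by a green fluorescent protein reporter, mpx:GFP, so the cells examined are those that the sort took as carrying it. Wildtype, tet2-/-, tet3-/- and tet2/3DM embryos, the last carrying both losses and called double mutants here, were taken at 2 days post fertilization (dpf). Wildtype embryos were also taken at 1.5 dpf, which the labels also write as 35 hours. The labels do not give the mutant alleles, the number of embryos pooled or the sorting dates. Separate clutches or sorts behind replicates are not stated either, so p-values reflect how far these libraries scatter, for technical or other causes.

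Glycolysis splits glucose into pyruvate in the cytosol and yields ATP without oxygen. Hexokinase traps glucose as a phosphate, glucose-6-phosphate isomerase converts it to the fructose form, and aldolase splits the doubly phosphorylated sugar into triose phosphates. Phosphoglycerate kinase and pyruvate kinase make ATP, phosphoglycerate mutase acts between them, and lactate dehydrogenase turns pyruvate into lactate and renews NAD+. Neutrophils have few mitochondria and draw most of their ATP from this pathway. Zebrafish keep paired copies of several of these genes from a genome duplication in the teleost lineage. The Tet2 and Tet3 enzymes oxidise methylated cytosine in DNA.

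Values are normalised read counts, that is, reads divided by a factor for each library. Recovered totals ran from 5.64 to 31.06 M (mega) reads, with tet3 replicates 1 and 2 the shallowest and the double mutants the deepest. The 10 genes together took 0.182 to 0.412% of all normalised counts. All 14 neutrophil markers found in the table were detected in every library, with summed values from 149464 to 545143, and mpx itself ran from 25586 to 89852. tet2 transcript ran from 592 to 2529 in the double mutants and from 1462 to 1994 in tet2 mutants, against 1542 to 1893 in wildtype at 2 dpf. tet3 transcript ran from 1532 to 2237 in tet3 mutants and from 1772 to 3062 in double mutants, against 1166 to 1620. Counts over a whole gene do not show which allele was present. Transcripts of other cell types were also present, and sums of muscle, erythroid and neural markers stand beside results below. Of 10 macrophage markers 6 fell and 1 rose in double mutants, with sums of 14378 to 17343 against 28094 to 30058 in wildtype at 2 dpf, and 6 were also lower against each single mutant. Their part in the results on double mutants was not tested. hsp70l, a heat-inducible chaperone gene whose reads may be shared with near-identical copies, ran from 367872 to 426506 in wildtype at 2 dpf and from 208418 to 564696 in tet2 mutants. It ran from 17123 to 17787 in tet3 mutants, from 5505 to 156506 in double mutants and from 4965 to 10181 in wildtype at 1.5 dpf. In bulk RNA of sorted cells, fewer cells of a type and less RNA per cell cannot be told apart.

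At 2 dpf, 1 of the 10 genes passed the test in double mutants, near the 8.68% of all genes that did. None passed in tet2 mutants (0.1% of all genes), in tet3 mutants (7.27%) or between the stages (20.8%). The gene that passed was aldoab, which was lower in double mutants. aldocb and ldha had higher means in double and tet3 mutants than in wildtype, without passing the test. In both mutants their libraries did not overlap those of wildtype. The same was so for 31.2% of all genes in double mutants and 39.2% in tet3 mutants, counting both directions. The test was limma on log2(value + 1) over all 15 libraries with Benjamini-Hochberg adjustment over 15933 genes and a threshold of 0.05. Adding 1 shrinks the ratio of 2 low values, but the change is a difference of mean logs, in which a single low library weighs heavily. Where the libraries of a group are unequal it can therefore also be the larger estimate. For aldoab in double mutants it was -1.86, against -1.33 with edgeR and -1.305 with DESeq2. For gpib in tet3 mutants it was -2.30, against -0.87 with edgeR. Because the spread is pooled over 5 groups, each p-value also reflects libraries outside its comparison.

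**Figure D1:**
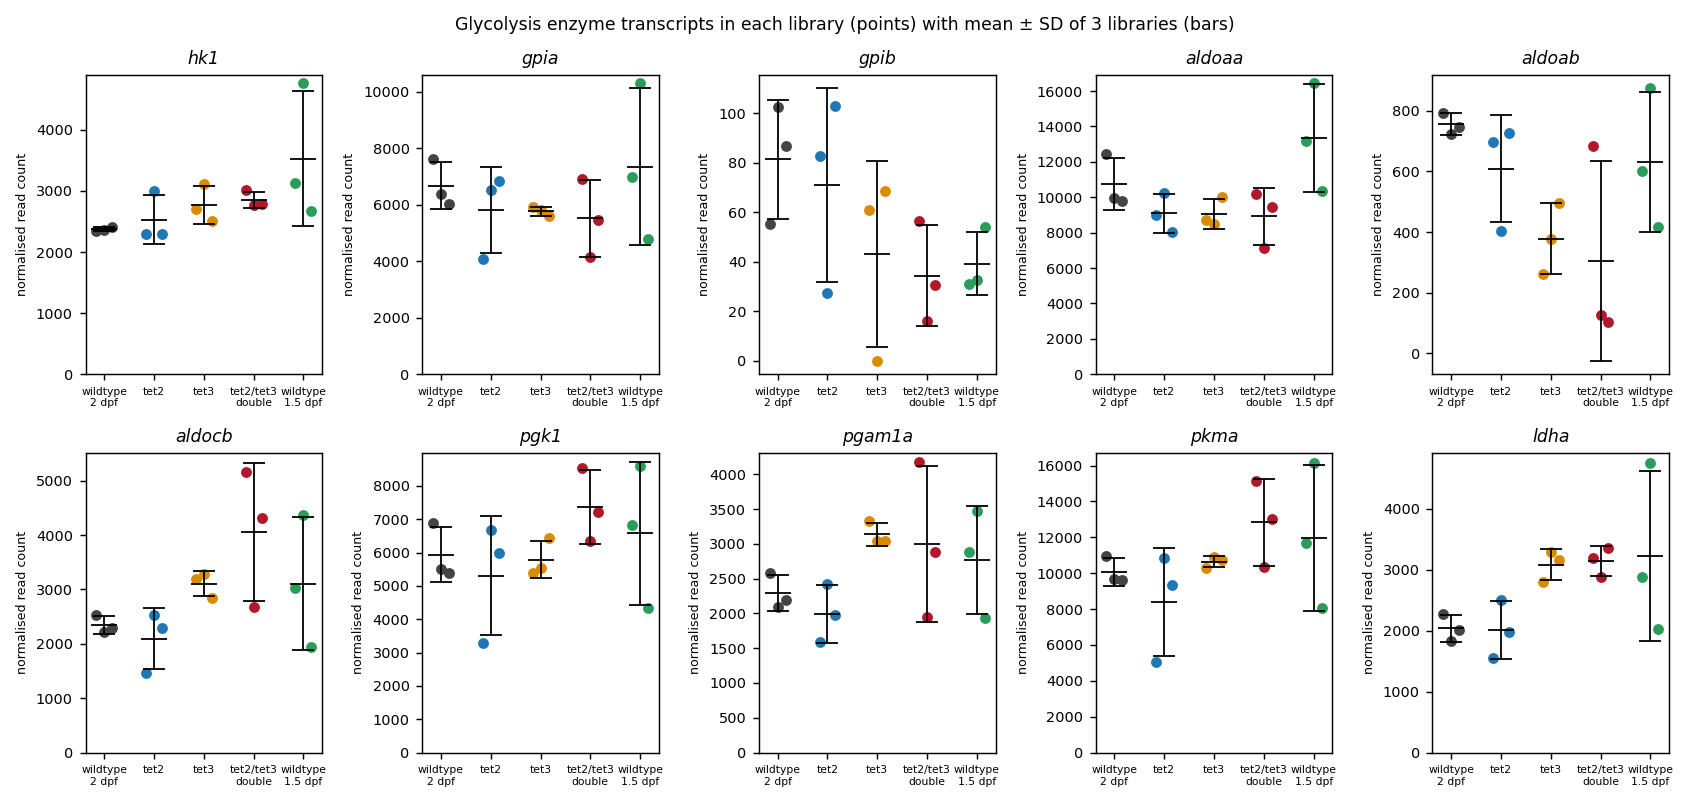
Normalised read count (vertical axis, linear, 1 panel per gene) of the 10 genes in each of 15 libraries. Points are libraries, coloured by group, and bars give the mean ± SD of 3 libraries. In double mutants aldoab shows 1 library at 684 and the others at 126 and 104, and tet2 replicate 1 and wildtype 1.5 dpf replicate 2 sit at the extremes of many panels.

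The first step of the pathway was represented by hk1, a hexokinase. Its values in wildtype at 2 dpf were 2352, 2367 and 2418, the tightest of any gene and group here with a coefficient of variation of 1.45%. Double mutants had 3011, 2777 and 2791, and all 3 lay above every wildtype library. tet3 mutants, with 2697, 3117 and 2503, also lay wholly above wildtype. tet2 mutants had 2296, 3001 and 2302 and overlapped it. Wildtype at 1.5 dpf had 3131, 4774 and 2670, higher than every 2 dpf wildtype library, with replicate 2 far above its group. None of these passed: the log2 change was 0.26 (SE 0.20, limma adjusted p = 0.466) in double mutants and 0.21 (adjusted p = 0.564) in tet3 mutants. The largest hk1 difference was between the stages, 0.52 (SE 0.20, limma adjusted p = 0.0703) at 1.5 dpf. It passed with DESeq2 on recovered reads (adjusted p = 0.0349) and with limma without wildtype 1.5 dpf replicate 3 (adjusted p = 0.0224). Without wildtype 1.5 dpf replicate 2 the hk1 change was 0.28 (limma adjusted p = 0.323).

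The second step is carried by gpia and gpib, paralogous glucose-6-phosphate isomerase genes. gpia ran from 4071 in tet2 replicate 1 to 10291 in wildtype 1.5 dpf replicate 2. gpia group means at 2 dpf were 6666 ± 828 (SD, n = 3) in wildtype and 5511 ± 1374 in double mutants. The tet2 mutants averaged 5810 ± 1516 and the tet3 mutants 5769 ± 162. tet3 mutants, at 5904, 5815 and 5589, lay below all wildtype libraries (7600, 6379 and 6020) by little, and the gpia change of -0.20 did not pass (limma adjusted p = 0.706). gpib was near the bottom of the table. Its values were 55.1, 103 and 86.7 in wildtype at 2 dpf. The tet2 mutants had 82.8, 27.2 and 103, and the tet3 mutants 60.8, 0 and 68.7. Double mutants had 56.3, 15.9 and 30.7, and wildtype at 1.5 dpf 31.0, 32.5 and 54.0. gpib rested on 0 to 115 reads a library, and the library at 0 allows a value of up to 7.52 by counting error alone. The gpib intervals were accordingly the widest: in double mutants the log2 change was -1.35 with a 95% interval from -3.85 to 1.15.

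gpib held a small part of the reads of the isomerase pair in all 15 libraries. Its share was 1.24 ± 0.46% (SD, n = 3) in wildtype at 2 dpf and 0.625 ± 0.43% at 1.5 dpf. It stood at 1.30 ± 0.80% in tet2, 0.744 ± 0.65% in tet3 and 0.583 ± 0.22% in double mutants. Shares are of reads and were not divided by transcript length, so they do not compare how many molecules each gene made, and the size of a change in share also depends on the lengths. Only the change in the ratio of a pair is free of them. The gpib shares of every group overlapped those of wildtype at 2 dpf. The two-sided exact permutation p ran from 0.2 to 0.9, in a design whose smallest p is 0.1, so it could not have passed. Nothing in the sources used here says how reads that match both copies of a pair were counted.

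The aldolase step held the one gene that passed, and its 3 genes did not share a direction in double mutants. aldoaa and aldoab are zebrafish copies of the aldolase A gene, the muscle and general form in mammals, and aldocb is a copy of the aldolase C gene, known as the brain form. aldoaa had 12445, 9984 and 9800 in wildtype at 2 dpf and 10200, 7104 and 9446 in double mutants. The single mutants had 8978, 10220 and 8057 (tet2) and 8691, 8462 and 10027 (tet3). The younger wildtype had 13204, 16463 and 10360. The aldoaa libraries of every group overlapped those of wildtype at 2 dpf, and its log2 changes lay between -0.28 and 0.30 with none passing.

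aldocb had the largest ratio of a mutant mean to the wildtype mean, 1.73 in double mutants. Its values were 2522, 2221 and 2292 in wildtype at 2 dpf. Libraries of tet3 mutants had 3189, 3287 and 2850, and those of double mutants 5166, 2670 and 4316. The tet2 mutants had 1454, 2522 and 2299, and the younger wildtype 3021, 4365 and 1940. Every tet3 and double mutant library lay above every wildtype library at 2 dpf, while tet2 mutants and the younger wildtype overlapped it. In double mutants the aldocb log2 change was 0.74 (SE 0.29, 95% interval 0.13 to 1.34, limma adjusted p = 0.128), and in tet3 mutants 0.41 (SE 0.29, adjusted p = 0.428). Neither passed. Double mutant replicate 2 was the lowest of its group, and without it the aldocb change was 1.01 (limma adjusted p = 0.0344). Without replicate 1 it was 0.54 (adjusted p = 0.354).

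aldoab was the one gene that passed. Its values were 794, 723 and 748 in wildtype at 2 dpf and 684, 126 and 104 in double mutants. All double mutant libraries lay below wildtype, but replicate 1 was close to it and replicates 2 and 3 were far below. The log2 change was -1.86 (SE 0.53, 95% interval -2.99 to -0.72, limma adjusted p = 0.0416). tet3 mutants had 262, 376 and 495, also all below wildtype, with a log2 change of -1.04 (limma adjusted p = 0.262). tet2 mutants had 696, 405 and 725, and wildtype at 1.5 dpf 601, 875 and 417. The former fell short of the wildtype range in replicates 1 and 2, and the latter spanned it.

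The aldoab call in double mutants did not hold under several settings. Its adjusted p was 0.152 with edgeR, 0.08 with DESeq2 and 0.139 with limma fitted to the 2 groups alone. It was 0.112, 0.104 and 0.11 by limma without wildtype replicate 1, 2 or 3, and 0.11 and 0.178 without double mutant replicate 2 or 3. Without double mutant replicate 1, the library nearest to wildtype, it was 0.000224. The call held in 6 of 15 settings: that one, a larger pseudocount, the other filters, another scaling and hsp70l as a covariate. With that covariate, chosen after seeing the data, the log2 change was -3.26. Within groups hsp70l varied most in double mutants (5505 to 156506), so the fitted slope rested largely on them. Double mutants, tet3 mutants and wildtype at 1.5 dpf all lay below wildtype at 2 dpf in hsp70l (367872 to 426506). Against wildtype, that fit therefore cannot fully separate hsp70l from group.

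Muscle markers differed between the same libraries, with exceptions. The summed value of 9 slow and cardiac muscle markers was 7653 to 8162 in wildtype at 2 dpf and 2004 to 4942 at 1.5 dpf. It was 2010 to 7019 for tet2, 183 to 563 for tet3 and 76.5 to 1330 for double mutants. Of these 9 markers, 6 passed the test as lower in double mutants and 7 in tet3 mutants, and 6 were at 0 in at least 1 library. The summed value of 17 fast muscle markers was 13021 to 18510 in wildtype at 2 dpf, and in double mutants 72957 in replicate 1, 1843 in replicate 2 and 1661 in replicate 3. Double mutant replicate 1 thus had both the highest fast muscle sum of the 15 libraries and the highest aldoab value of its group. That aldoab value was still below every wildtype library at 2 dpf. In wildtype at 1.5 dpf the fast muscle sums were 2372, 7328 and 4789, below wildtype at 2 dpf, while aldoab in replicate 2 exceeded it. Within that group replicate 2 was the highest in both, but the lowest library differed. In tet3 mutants the fast muscle sums were 2457, 2372 and 13324. There replicate 3 was the highest in both, and again the lowest library differed. In wildtype at 2 dpf replicate 1 was the highest in aldoab and the lowest in the fast muscle sum. tet2 replicate 2, the lowest of its group in aldoab, had a fast muscle sum of 4525 against 25887 and 18025 in replicates 1 and 3. hsp70l was also lower in double and tet3 mutants than in wildtype. The part of muscle transcripts and of heat shock in the aldoab difference was not tested.

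**Figure D2:**
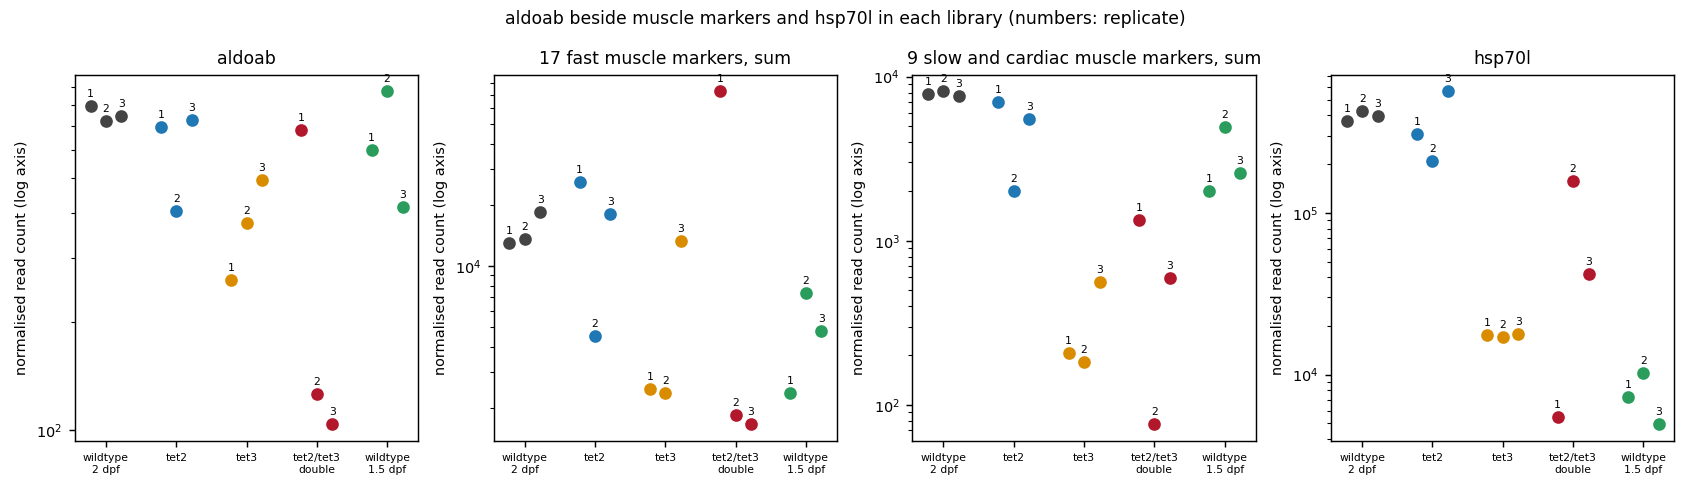
Normalised read count (vertical axes, logarithmic) of aldoab, of 17 fast muscle markers summed, of 9 slow and cardiac muscle markers summed and of hsp70l, in each library. Points are libraries by group and the small numbers are replicates. Double mutant replicate 1 stands at 684 for aldoab and 72957 for the fast muscle sum, above the other double mutants in both.

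The split of aldolase reads among the 3 genes was similar in the wildtype libraries at 2 dpf, and in tet3 and double mutants it lay outside their range. aldocb took 17.01 ± 0.94% (SD, n = 3) of the aldolase reads in wildtype at 2 dpf, with libraries from 16 to 17.9%. Its share was 24.9 ± 3.1% in tet3 mutants (21.3 to 27.1%) and 30.1 ± 2.8% in double mutants (27.0 to 32.2%), with no overlap with wildtype. It was 17.7 ± 4.1% in tet2 mutants and 17.8 ± 2.4% in wildtype at 1.5 dpf, both of which overlapped wildtype at 2 dpf.

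The share of aldoaa was correspondingly lower, at 72.1 ± 2.6% (SD, n = 3) for tet3 and 67.8 ± 4.1% for double mutants against 77.5 ± 1.3% in wildtype at 2 dpf. It was 77.04 ± 4.0% in tet2 mutants and 78.6 ± 2.8% in the younger wildtype. aldoab took 5.49 ± 0.40% in wildtype at 2 dpf and 3.63 ± 0.38% at 1.5 dpf. Its share was 5.29 ± 1.9% for tet2, 2.99 ± 0.78% for tet3 and 2.09 ± 1.9% for double mutants. aldoab at 1.5 dpf, at 3.28 to 4.03%, did not overlap the 5.04 to 5.82% of wildtype at 2 dpf either. For all 3 genes in tet3 and in double mutants, and for aldoab at 1.5 dpf, the exact permutation test gave a two-sided p of 0.1, the smallest that 3 against 3 libraries allow. The design therefore cannot pass 0.05 here.

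Expressed as a ratio within a library, aldocb reads were 0.203 to 0.234 of aldoaa reads in wildtype at 2 dpf. The tet3 mutants ranged from 0.284 to 0.389 and the double mutants from 0.376 to 0.506. The mean log2 ratio was higher than in wildtype by 0.65 in tet3 mutants and by 1.01 in double mutants. The exact permutation p was 0.1 for both, with an adjusted value of 0.229 over 16 such comparisons of paralog ratios. The ratio is free of the scaling of a library. hsp70l was lower in all tet3 and double mutant libraries than in wildtype at 2 dpf, and also in the younger wildtype, whose aldocb share was 15.3 to 20.1%. The fast muscle sums of the double mutants were 72957, 1843 and 1661, and their aldocb shares 32.2, 27.0 and 31.1%. The part of heat shock and of muscle transcripts in the aldocb share was not tested.

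**Figure D3:**
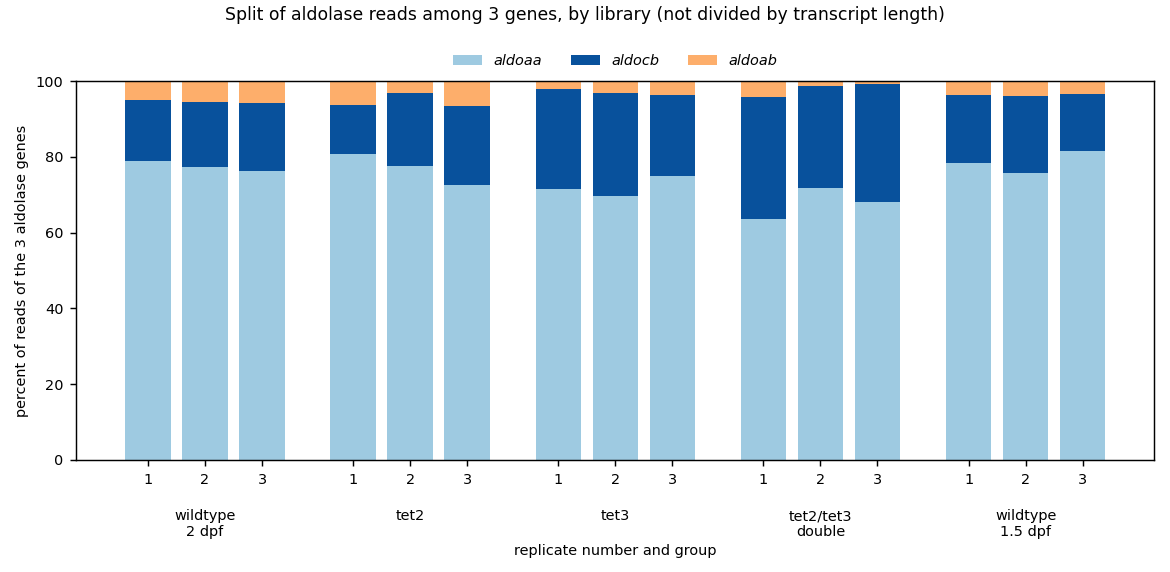
Percent of the reads of aldoaa, aldocb and aldoab (vertical axis, from 0 to 100, not divided by transcript length) in each of 15 libraries, grouped along the horizontal axis with replicate numbers. Each bar is a library. The dark aldocb segment spans 16 to 17.9% in wildtype at 2 dpf, with tet3 mutants at 21.3 to 27.1% and double mutants at 27.0 to 32.2%.

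None of the members in the later steps of the pathway passed in any comparison. pgk1, phosphoglycerate kinase, had 6887, 5515 and 5397 in wildtype at 2 dpf and 8537, 6355 and 7211 in double mutants, which overlapped. pgk1 ran from 3283 to 8588 over the 15 libraries, the lowest in tet2 replicate 1 and the highest in wildtype 1.5 dpf replicate 2. pkma, pyruvate kinase, was 10069 ± 754 (SD, n = 3) in wildtype at 2 dpf and 11966 ± 4059 at 1.5 dpf. The tet2, tet3 and double mutants averaged 8410 ± 3008, 10651 ± 312 and 12838 ± 2411. The pkma groups overlapped wildtype at 2 dpf in every comparison. The SD was largest in the younger wildtype, but the coefficient of variation was largest in tet2 mutants (35.8%, against 33.9% in the younger wildtype).

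pgam1a, a phosphoglycerate mutase, had 2586, 2095 and 2191 in wildtype at 2 dpf, below the 3326, 3046 and 3039 of tet3 mutants, with no overlap. Double mutants ranged from 1941 to 4179 and took in the whole wildtype range. The pgam1a log2 change in tet3 mutants was 0.46 (SE 0.26, limma adjusted p = 0.311).

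ldha, lactate dehydrogenase A, had 2273, 1831 and 2011 in wildtype at 2 dpf. Libraries of tet3 mutants had 2800, 3295 and 3150, and those of double mutants 3193, 2870 and 3345. Both mutants lay wholly above wildtype. tet2 mutants, with 1542, 2497 and 1977, overlapped wildtype, and so did wildtype at 1.5 dpf with 2883, 4752 and 2019. ldha log2 changes were 0.60 (SE 0.25, limma adjusted p = 0.163) in tet3 mutants, 0.62 (SE 0.25, adjusted p = 0.142) in double mutants and 0.57 (SE 0.25, adjusted p = 0.115) at 1.5 dpf, and none passed. Without wildtype 1.5 dpf replicate 3 the last was 0.87 (limma adjusted p = 0.0164), and without replicate 2 it was 0.25 (adjusted p = 0.492).

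Several of these genes passed when limma was fitted to the 2 groups alone, where the tight spread of wildtype and tet3 libraries is not pooled with the other groups. In tet3 mutants ldha (adjusted p = 0.000966), pgam1a (0.00612), aldocb (0.011) and aldoab (0.000729) passed in that limma fit, in which 3912 of all genes did. ldha passed in double mutants in the same way (limma adjusted p = 0.0294). tet3 replicates 1 and 2 had close fast muscle sums (2457 and 2372, against 13324 in replicate 3). Their erythroid sums were also close (8493 and 8482, against 14278.5), while heat shock sums were alike in every tet3 library. Whether replicates 1 and 2 came from separate embryos is not stated, and if not, the tet3 spread understates the scatter. tet3 replicates 1 and 2 were also the shallow libraries, at 5.64 and 5.96 M reads. Without both of them the log2 changes in tet3 mutants were 0.63 for ldha (limma adjusted p = 0.612), 0.28 for aldocb (adjusted p = 0.889) and -0.61 for aldoab (adjusted p = 0.855), on a single tet3 library assumed to vary like the rest. With hsp70l as a covariate, an alternative chosen after seeing the data, the ldha change was 0.65 in double mutants (limma adjusted p = 0.524) and 0.63 in tet3 mutants (adjusted p = 0.6). The aldocb change in that fit was 0.30 in double mutants and -0.15 in tet3 mutants. The pgam1a change in tet3 mutants was -0.35. aldocb and pgam1a in tet3 mutants thus changed direction, in a fit that cannot fully separate hsp70l from group.

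**Figure D4:**
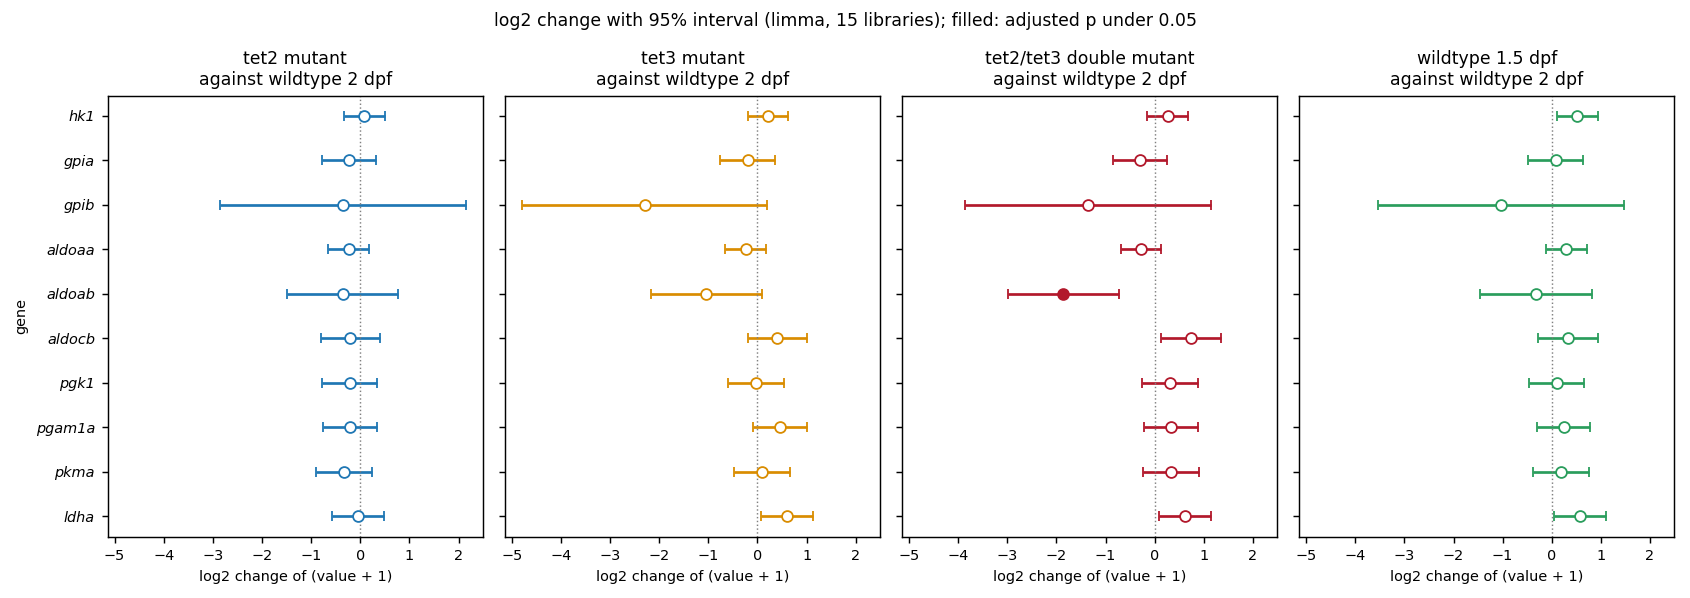
log2 change of (value + 1) against wildtype at 2 dpf (horizontal axis, the same in each panel) for each of the 10 genes (vertical axis) in tet2, tet3 and double mutants and in wildtype at 1.5 dpf. Points are limma estimates, bars are 95% intervals and filled points passed the test. The only filled point is aldoab in double mutants at -1.86, and the widest bars belong to gpib.

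The counts over the 10 genes are given beside the share over all genes. In double mutants against wildtype 1 of 10 passed, against 8.68% of all 15933 genes tested, and 4 of 10 did not overlap wildtype, 3 higher and 1 lower, against 31.2% of all genes. In tet3 mutants none passed, against 7.27% of all genes, and 6 of 10 did not overlap, 4 higher and 2 lower, against 39.2%. In tet2 mutants none passed and none was free of overlap, against 0.1% and 11.7% of all genes. Between the wildtype stages none passed, against 20.8%, and 2 did not overlap, 1 higher and 1 lower, against 43.3%. At an unadjusted p under 0.05 by limma there were 3 of the 10 genes in double mutants, where 3652 of all 15933 genes were, and 1 in tet3 mutants, where 3636 were. There were 0 in tet2 mutants (1002 of all genes) and 2 between the stages (5486). With edgeR none of the 10 passed in these 4 comparisons, and with DESeq2 only hk1 between the stages. These comparisons share the wildtype libraries at 2 dpf.

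The median log2 change of the 10 genes was 0.29 in double mutants, where that of all genes was 0.01. It was 0.13 without double mutant replicate 1 and -0.10 with hsp70l as a covariate. The median was -0.22 in tet2 mutants (all genes -0.002), 0.03 in tet3 mutants (-0.04) and 0.22 at 1.5 dpf (-0.01). In tet3 mutants it changed sign on leaving out tet3 replicate 3 (-0.02) or wildtype replicate 2 (-0.01) or 3 (-0.02), and it was -0.28 with hsp70l as a covariate. Without wildtype 1.5 dpf replicate 2 the median at 1.5 dpf was -0.002, with 5 of 10 changes positive. With hsp70l as a covariate the median at 1.5 dpf was -0.29, with 8 of 10 changes negative. The medians with that covariate come from a fit that cannot fully separate hsp70l from group. In tet2 mutants 9 of the 10 changes were negative, the exception being hk1. tet2 replicate 1 was the lowest of all 15 libraries for 7 of the 10 genes, and without it 4 of the 10 changes were negative, with a median of 0.006.

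Double mutants were also set against each single mutant. Against tet2 mutants no member passed, with 4.45% of all genes passing, and 2 of 10 did not overlap, both higher, against 15.6% of all genes. Those were aldocb (log2 change 0.94, SE 0.29, limma adjusted p = 0.0771) and ldha (0.67, SE 0.25, adjusted p = 0.16). aldocb passed in that comparison with DESeq2 (adjusted p = 0.0248) and in limma without double mutant replicate 2 (adjusted p = 0.018). Against tet3 mutants no member passed, with 2.33% of all genes passing, and none was free of overlap, against 22.8% of all genes. The ldha change there was 0.03 with a 95% interval from -0.50 to 0.56. The aldoab change was -1.50 (SE 0.53, limma adjusted p = 0.138) against tet2 mutants and -0.81 (SE 0.53, adjusted p = 0.503) against tet3 mutants, where DESeq2 gave -0.31. Without double mutant replicate 1, aldoab passed as lower than in tet2 mutants (log2 change -2.36, limma adjusted p = 0.00125) and than in tet3 mutants (-1.67, adjusted p = 0.0172). At an unadjusted p under 0.05 by limma there were 4 members against tet2 mutants (2849 of all 15933 genes) and 0 against tet3 mutants (2461), and edgeR called none in either. The double mutant effect was not shown to differ from the sum of the single effects for any member by the test of interaction, where 0.333% of all genes passed and the smallest adjusted p of a member was 0.787, that of pkma (log2 0.58).

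In tet2 and double mutants and in the younger wildtype, many of the genes had their extremes in the same library, which was not so in tet3 mutants, where no library was highest or lowest for more than 4 of the 10. In wildtype at 2 dpf replicate 1 was the highest for 8, and the lowest values were spread over the 3 libraries. In double mutants replicate 1 was the highest of its group for 9 of the 10 genes and replicate 2 the lowest for 9. In wildtype at 1.5 dpf replicate 2 was the highest for 9 and replicate 3 the lowest for 9. Over all 15 libraries wildtype 1.5 dpf replicate 2 was the highest for 7 genes. Neutrophil markers had the same order in tet2 mutants and in the younger wildtype. Their summed value was 149464 in tet2 replicate 1 against 379280 and 325811 in the other tet2 libraries. In the younger wildtype it was 372168, 545143 and 194737 in replicates 1, 2 and 3. In double mutants it was 201048, 179810 and 225199, so there replicate 2 was the lowest but replicate 1 not the highest. Neural markers were highest in the library of each of these groups that was lowest for most of the genes. Their sum was 39638 in tet2 replicate 1 and 15285 and 7152 in replicates 2 and 3. It was 6973 in wildtype 1.5 dpf replicate 2 against 18296 in replicate 3. In double mutants the neural sum was highest in replicate 2, at 26937. Their part in the levels of the glycolysis genes was not tested.

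As a description over 15 libraries, each gene was set against the mean standardised log2 profile of the other 9. pkma followed it most closely (Pearson r = 0.858), then gpia (0.828) and pgk1 (0.821). aldoab (0.114) and gpib (-0.18) did not follow it. The mean of the 10 was also set against 12014 other genes with a mean of at least 50. Clone names, and symbols that end in a dot and a number, were left out of these. The most alike among the 12014 were arpc3 (Pearson r = 0.96), atp6v1h (0.958), wdr1 (0.953), atp6v1c1a (0.952) and pgd (0.952). arpc3 and wdr1 encode regulators of actin filaments, atp6v1h and atp6v1c1a subunits of the vacuolar proton pump, and pgd an enzyme of the pentose phosphate pathway. The libraries share groups and cell makeup, so these values are not independent points.

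Other enzymes of the chain were examined as a list. Genes outside the 10 members, here and below, were called by the main limma fit alone. Whether their calls hold under the alternatives was not examined. Of 26 further glycolytic enzymes listed 18 were tested, and in double mutants none rose and none fell, with a median log2 change of -0.01 and 9 of 18 changes negative. In tet3 mutants the median was -0.44 with 13 of 18 negative, and in tet2 mutants -0.21 with 14 negative. At 1.5 dpf the median was -0.20 with 14 of 18 negative, where 8 of the 10 members had positive changes. There 1 of the 18 fell, pfkla, a phosphofructokinase gene, from 73.7 ± 32 to 28.7 ± 14 (SD, n = 3; limma log2 change -1.34, adjusted p = 0.031). Of all genes 20.8% passed at 1.5 dpf, 8.68% in double mutants and 0.1% in tet2 mutants. In tet2 mutants none of the 18 passed. Fast muscle sums ran from 13021 to 18510 in wildtype at 2 dpf, from 2372 to 13324 in tet3 mutants and from 2372 to 7328 at 1.5 dpf. They ran from 4525 to 25887 in tet2 mutants and from 1661 to 72957 in double mutants. The part of muscle transcripts in the medians of the 18 enzymes was not tested.

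One gene of glucose uptake differed more widely. slc2a3b, a facilitative glucose transporter gene, had 817, 723 and 816 in wildtype at 2 dpf and 5207, 1903 and 5080 in double mutants. It had 2441, 2936 and 2283 in tet3 mutants, 340, 1700 and 775 in tet2 mutants, and 2854, 4313 and 2777 in wildtype at 1.5 dpf. Double mutants, tet3 mutants and the younger wildtype all lay above every wildtype library at 2 dpf, and tet2 mutants spanned it. The slc2a3b log2 change was 2.23 (SE 0.46, limma adjusted p = 0.00697) in double mutants, 1.69 (adjusted p = 0.0371) in tet3 mutants and 2.05 (adjusted p = 0.00629) at 1.5 dpf. It was the only one of 22 tested genes of glucose and lactate transport and pathway regulation to rise in those comparisons. The share of all genes that passed, in both directions, was 8.68% in double mutants, 7.27% in tet3 mutants and 20.8% at 1.5 dpf. At 1.5 dpf 2 of the 22 fell, pfkfb2a, which controls phosphofructokinase through fructose 2,6-bisphosphate, and pdk2a, a pyruvate dehydrogenase kinase.

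Genes of the side branches of the pathway were examined as well. Of all genes 8.68% passed in double mutants, 7.27% in tet3 mutants and 20.8% at 1.5 dpf. pgm2, a gene of the phosphoglucomutase family, had 660, 764 and 730 in wildtype at 2 dpf and 2064, 1521 and 2945 in double mutants (log2 change 1.55, SE 0.23, limma adjusted p = 0.000632). It also rose in tet3 mutants (1720, 1625 and 1589; log2 change 1.196, limma adjusted p = 0.00711) and at 1.5 dpf (1917, 2209 and 1417; 1.34, adjusted p = 0.00109), the only 1 of 10 glycogen genes to pass in each case. Of 8 pentose phosphate genes, which supply the NADPH that the neutrophil oxidase uses, rpia was the only one to rise in double mutants (348 ± 17 to 565 ± 86, SD, n = 3) and in tet3 mutants (589 ± 50). At 1.5 dpf rpia, tktb and taldo1 rose. None of 3 gluconeogenesis genes passed in any comparison.

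The hypoxia pathway controls many glycolysis genes in other cells, and 21 of its genes were tested. In double mutants 1 rose and 1 fell, where 8.68% of all genes passed. In tet3 mutants 2 rose (7.27% of all genes passed), and at 1.5 dpf 3 fell (20.8%). igfbp1a, a binding protein of insulin-like growth factors, rose in double mutants (277 ± 89 to 1675 ± 922, SD, n = 3; limma log2 change 2.45, adjusted p = 0.000941) and in tet3 mutants (1008 ± 14). adma, an adrenomedullin gene, fell in double mutants from 226 ± 48 to 81.7 ± 21. epas1a, a hypoxia-inducible factor subunit, rose in tet3 mutants and fell at 1.5 dpf, where hif1aa and egln1a also fell.

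These genes lay in libraries that differed in other ways. In double mutants 10 of 12 heat shock genes fell, in tet3 mutants 9 and at 1.5 dpf 10. At 1.5 dpf 10 of 11 erythroid markers rose, with sums of 149189 to 165849 against 3013 to 5950 in wildtype at 2 dpf. Their part in these differences was not tested.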

How the data were processed

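Sorted cells were extracted with an RNeasy micro kit and sequenced after TruSeq v2 preparation (labels' protocols), which keeps no strand, so reads of antisense or overlapping genes are mixed. Per the submitters' processing notes, the tools included TopHat, Cufflinks and DESeq2. Not given in the sources used here are their versions, the build, the gene models and the counter. The deposited table holds a signal per gene and library, that is, read counts scaled by the authors with 1 factor per library. This was read from the values, all 100% of which were whole multiples of 1 read within 0.01.

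limma 3.58.1 (R 4.3.3) was fitted to log2(value + 1) with trend and robust moderation, 5 group means and no replicate block. Genes needed at least 10 in at least 3 libraries, which removed 4 of 15937. Two-sided p-values were adjusted by Benjamini-Hochberg and called below 0.05. edgeR 4.0.16 and DESeq2 1.42.0 on recovered reads, other pseudocounts, filters, scaling, fits and libraries left out were alternatives. Steps were tested on simulated data. No library was a copy of another of its group. Groups came from the titles. Floors are 3 reads and cover counting error only.

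Members and 13 other gene lists were chosen with earlier results of these data known. Of 209 list entries 177 were found and tested. Named are all members, mpx, lyz, tet2, tet3 and hsp70l for checks, and up to 4 genes of each pathway list with the smallest p. Also named are the 5 genes most like the members among the 12014 compared. A planned comparison of paralog levels per kilobase was not made because transcript lengths were not used here; read shares and ratios stand in its place. The count of further glycolytic enzymes that passed in tet3 mutants is not reported here.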

Additional observations from a re-analysis of the deposited data

How the results depend on the processing

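The only member change that passed in the main fit, aldoab in double mutants, kept its direction under every alternative. It held its call in 6 of 15. In tet3 mutants aldocb and pgam1a passed with only the groups compared, but changed direction with hsp70l as a covariate. Genes called under DESeq2 numbered 2093 in double mutants (1383 by limma), 111 in tet2 mutants (16), 1316 in double against tet2 mutants (709), 854 in double against tet3 mutants (372) and 236 for the interaction (53). With only the groups compared they were 0 in tet2 mutants, 3912 in tet3 mutants (1159 in the full fit), 66 against tet2 mutants and 600 against tet3 mutants. For the 0 in tet2 mutants, the full fit had 1002 genes at an unadjusted p under 0.05. hsp70l as a covariate was chosen after seeing the data and was largely tied to group. With it counts were 159 in double mutants, 21 in tet3 mutants and 41 at 1.5 dpf (3317). They were 108 against tet2 mutants and 81 for the interaction. Without both shallow tet3 libraries, also chosen later, they were 47 in tet3 mutants, 11 against tet3 mutants and 2 for the interaction. With each library left out in turn counts ran from 688 to 1673 in double mutants, 7 to 85 in tet2 mutants, 382 to 749 in tet3 mutants, 1845 to 3316 at 1.5 dpf, 377 to 1145 against tet2 mutants, 168 to 314 against tet3 mutants and 14 to 141 for the interaction. The cause was not tested.

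Same-numbered libraries deviated together in few cases, with 6 of 30 correlations over 0.1, so the numbers were not taken as pairs. With a replicate block 1221 genes were called in double mutants and the adjusted p of aldoab was 0.0522. Over all alternatives 1118 values of single members kept their side of the threshold, 13 came past it and 9, all of aldoab in double mutants, lost it. gpib rested on at most 115 reads a library.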
